A study of Rattus norvegicus with 12 samples.

Results

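Lcn2 and Bpifb1 encode 2 proteins that the lung secretes in defence against bacteria. Lcn2 encodes lipocalin 2, a small carrier protein that binds bacterial siderophores and so withholds iron from bacteria. It is stored in neutrophil granules and is also made by epithelial cells and macrophages during inflammation, in epithelium largely through NF-κB and C/EBP signalling. Bpifb1 encodes a member of the BPI fold family, the family of lipopolysaccharide-binding and lipid-transfer proteins, and is secreted by mucous and glandular cells of the airways. The members were all array probes to which the authors' table of differentially expressed genes gives these symbols. They were 2 of the 51255 distinct probes on the array, with 1 probe for each gene, among 1279 named probes of 1099 genes in the part of that table that could be read. The authors had chosen that table by the difference between silica and control lungs at day 28 on these same arrays. Values at day 28 are therefore given as a description, without a test, and the test was made at day 14, on arrays that were not used in that choice. The members were, however, picked for this report with earlier results of these data known, so the test at day 14 is not shown to be free of selection.

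Lung RNA of 12 male Wistar rats was hybridized to single-colour arrays, 1 rat to an array. The rats of the model group had received 1 mL of silicon dioxide at 50 mg/mL into the trachea, and the rats of the control group 1 mL of saline. Titles of the samples give 50 mg/kg for the model group and 0 mg/kg for the controls. For rats of the body weight in the methods this is not the same dose, and the sources do not settle which holds. The labels give 4 groups of 3 rats, since both treatments were sampled at day 14 and at day 28, and the p-values below measure the spread between these rats. The ages of the rats are not given in the sources used here. The methods of the study describe its 2 groups at day 28 and state that lungs were picked for the arrays by their histology. They describe no rats of day 14, and the protocol text of every sample speaks of 28 days, so day 14 rests on titles and time point labels. The tissue was whole lung, and in such samples fewer cells of a type and less RNA per cell cannot be told apart.

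An array had 60.5% to 69.5% of its probes well above background, and no probe was saturated. The 3 silica arrays of day 28 and the array of saline rat 1 of day 28 lay on 1 slide, and the other 8 arrays lay on a second slide. All comparisons at day 14 were therefore made within a slide. Both member probes were well above background on all 12 arrays. The named genes included no marker of alveolar type 2 cells, so the lung label was read only from alveolar type 1 genes. The probes of Aqp5, Rtkn2, Clic5 and Cav1 were well above background in every rat.

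The probes were 60 bases long and each was printed as 1 spot, so every value below is a single spot on a single array. Their sequences are shown because the measurement of each gene rests on 1 probe. The sequence of the Bpifb1 probe (A_64_P074741) is given whole, and of the Lcn2 probe (A_42_P638620) the first 30 bases are given. No other probe of the array shared a run of 25 bases with either.
Lcn2 probe: caatgcattgacaactgaacagacggtgag
Bpifb1 probe: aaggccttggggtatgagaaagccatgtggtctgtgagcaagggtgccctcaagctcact

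Lcn2 mRNA was high in every silica rat and low in every control rat at day 14. On the log2 scale its normalized signal was 11.43 in saline rat 1, 10.97 in saline rat 2 and 11.53 in saline rat 3. In the silica rats it was 15.04, 16.28 and 15.51. The lowest silica rat lay 3.51 above the highest saline rat, so the groups did not overlap. The mean was 15.61 ± 0.63 (SD, n = 3) in the silica rats and 11.31 ± 0.30 (SD, n = 3) in the saline rats. The log2 fold change of Lcn2 at day 14 was 4.30 (standard error 0.32, adjusted p = 0.0021 from limma), which is 19.7-fold. Before normalization the spot intensity ran from 1959 to 3075 in the saline rats and from 40312 to 88778 in the silica rats.

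Bpifb1 mRNA was also higher in every silica rat than in every control rat at day 14. Its signal was 6.75, 7.64 and 8.42 in the saline rats and 10.96, 12.02 and 11.35 in the silica rats, in the order of their numbers. The gap between the lowest silica rat and the highest saline rat was 2.53. The mean was 11.44 ± 0.54 (SD, n = 3) in the silica rats and 7.61 ± 0.84 (SD, n = 3) in the saline rats. The log2 fold change of Bpifb1 at day 14 was 3.84 (standard error 0.44, adjusted p = 0.0073 from limma), which is 14.3-fold. The spot intensity before normalization was 131 to 348 in the saline rats and 1810 to 4494 in the silica rats.

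**Figure D1:**
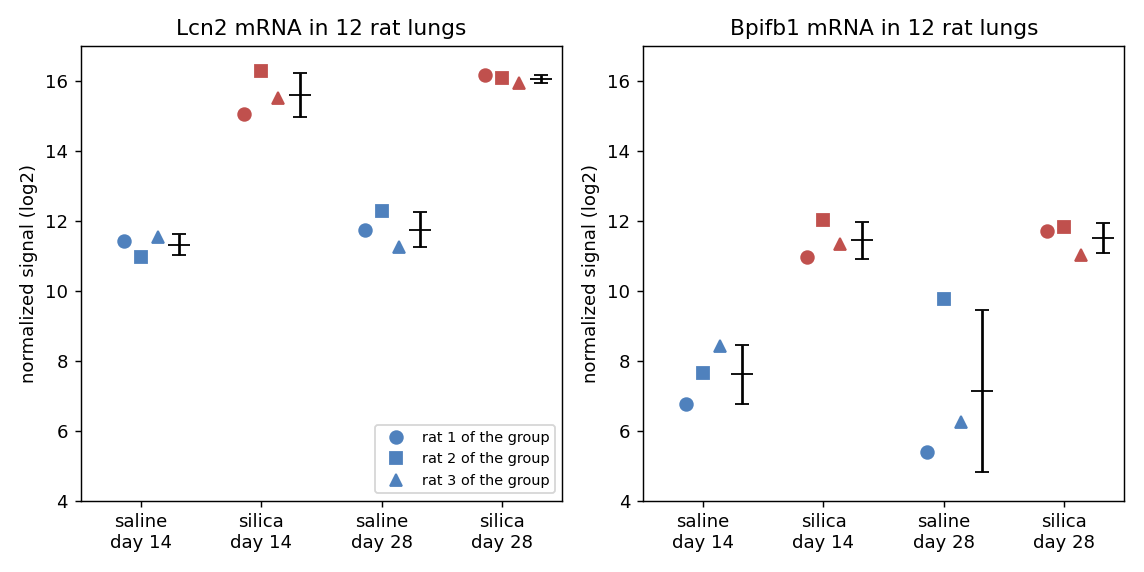
Normalized log2 signal of Lcn2 and Bpifb1 in each of the 12 rats, by group; points are single rats, and the black bars are the group mean and SD (n = 3). Every silica point lies above every saline point of the same day for both genes, and the saline rats of day 28 are spread most for Bpifb1, from 5.38 to 9.76.

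Both genes were upregulated at day 14, where 2.65% of the 33615 probes tested were called higher in silica (890 probes). Among the 1236 named probes tested, which like the members had been selected at day 28, but for a rise or a fall, 25.3% were called higher. In all, 4.99% were called in either direction and 2.34% lower. To be called, a probe needed a change of 2-fold or more and an adjusted p no higher than 0.05. Ordered by the size of the rise among all probes tested at day 14, Lcn2 stood at place 19 and Bpifb1 at place 28. Each gene was still called when any of the 6 rats of day 14 was omitted, with Bpifb1 at the threshold without saline rat 2 (adjusted p = 0.050 from limma). For groups of 3 rats the smallest two-sided p of an exact permutation test on 1 gene is 0.1. The lower p-values here rest on the model of limma, which assumes normal errors and shares spread across probes.

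At day 28 the signal of Lcn2 was 11.73, 12.27 and 11.25 in the saline rats and 16.17, 16.08 and 15.94 in the silica rats. The 3 silica rats lay within 0.23 of each other. The means were 16.06 ± 0.11 (SD, n = 3) and 11.75 ± 0.51 (SD, n = 3), a log2 difference of 4.32, or 19.9-fold. Bpifb1 had 11.71, 11.82 and 11.03 in the silica rats of day 28. In the saline rats it had 5.38, 9.76 and 6.24. The means were 11.52 ± 0.43 (SD, n = 3) and 7.13 ± 2.32 (SD, n = 3), a log2 difference of 4.39. The lowest silica rat exceeded the highest saline rat by 3.67 for Lcn2 and by 1.27 for Bpifb1. At day 28, 9.55% of the 32097 probes tested were called and 4.91% were higher in silica, and nothing is read from this here because the same contrast chose both genes.

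The Bpifb1 mean of the day 28 controls rested on saline rat 2. Without that rat the log2 difference of Bpifb1 was 5.71, and with slide as a block it was 6.14, since the block leaves saline rat 1 as the only control on the slide of the silica rats. For Lcn2 the same settings gave 4.58 and 4.33.

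The change of Lcn2 was 4.30 at day 14 and 4.32 at day 28, so the days differed by 0.02 on the log2 scale. Lcn2 signal was higher at day 28 than at day 14 by 0.45 in the silica rats and by 0.44 in the saline rats, and the SD of these groups ran from 0.11 in the silica rats of day 28 to 0.63 in those of day 14. Bpifb1 changed by 3.84 at day 14 and by 4.39 at day 28, a difference of 0.56. The SD of Bpifb1 in the 4 groups ran from 0.43 to 2.32. Silica rats of the 2 days differed by 0.08 in Bpifb1 and saline rats by -0.48. Leaving out a single rat moved the difference between days from -0.32, without saline rat 1 of day 28, to 1.87, without saline rat 2 of that day. These differences between days were not tested, because they include the contrast that chose the genes, and the silica rats of the 2 days were on different slides.

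The spread between single rats was wide for Bpifb1 in control lungs. Its SD in the saline rats of day 28 was larger than that of 99.9% of the 34097 probes tested on either day, whose median SD in that group was 0.19. In the saline rats of day 14 its SD of 0.84 exceeded that of 99.2% of the probes. The unnormalized intensity of Bpifb1 differed 26.7-fold between the highest and lowest saline rat of day 28, from 38.0 to 1016. The lowest of these rats was on the other slide, and the 2 that shared a slide differed 11.4-fold. With normexp background correction the 3 rats differed 8.03-fold. In the silica rats the highest unnormalized intensity of Bpifb1 was 2.48-fold the lowest at day 14 and 1.75-fold at day 28. Lcn2 varied less in control lungs, with an SD above that of 79.2% of the probes at day 14 and of 89.6% at day 28. In the silica rats of day 28 the SD of Lcn2 exceeded that of 34.9% of the probes. The highest of these rats was 1.17-fold the lowest in normalized and 1.46-fold in unnormalized Lcn2 signal.

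Saline rat 2 of day 28 stood highest of its group in both genes, by 0.54 above the next rat in Lcn2 and by 3.51 in Bpifb1. The same rat had the highest mean of its group in 4 of the 5 marker lists with named genes, alveolar type 1 being the exception, and in the 4 functional lists below. Cyp2f4, a cytochrome P450 of club cells, had a signal of 9.40 in this rat against 7.54 and 7.25 in the others. Aldh1a1, an aldehyde dehydrogenase on the same marker list, had 9.57, also the highest of the 3. Rsph1, a component of the ciliary axoneme, had 8.68 against 7.60 and 7.95, and Tppp3, also on the list of ciliated cells, had 12.40 against 11.99 and 12.06. The mean signal of the 2 named airway secretory markers (of 10 listed) was 9.49 in saline rat 2 and 8.27 and 8.30 in the others. For the macrophage markers it was 8.67 against 8.43 and 8.47, and for the neutrophil markers 6.50 against 5.73 and 6.37. For the alveolar type 1 markers it was 12.02 in rat 2, between 11.93 and 12.13. Scgb1a1, Scgb3a1, Scgb3a2, Muc5b, Muc5ac and Bpifa1, which define these cells, had no named probe and were not analysed here. The part of any cell type in the Bpifb1 level of this rat was not tested.

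**Figure D2:**
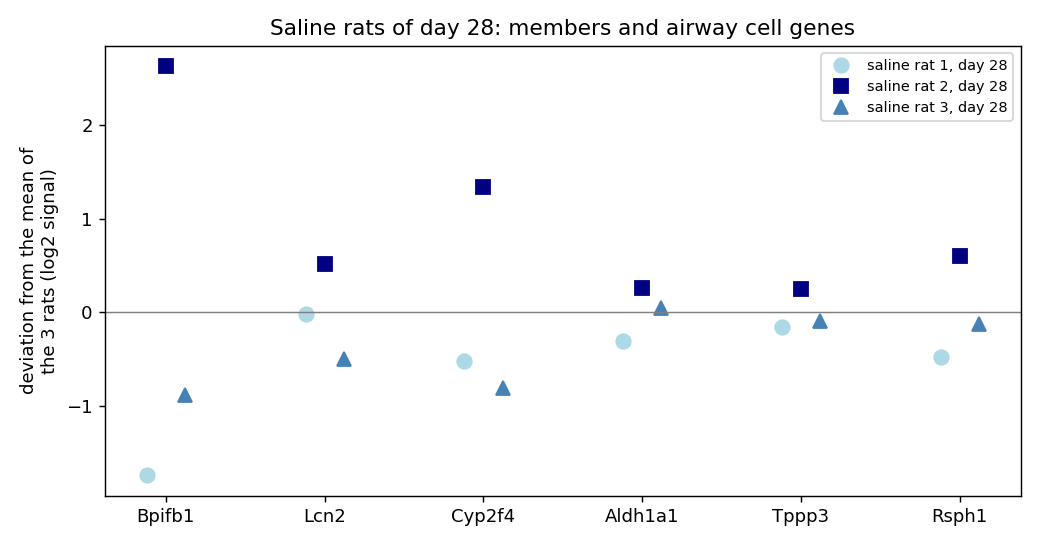
Deviation of each saline rat of day 28 from the mean of the 3 rats, in log2 signal, for Lcn2, Bpifb1 and the 4 named markers of airway secretory and ciliated cells; each point is a rat. Saline rat 2 is the highest point for every gene plotted, with Bpifb1 2.63 and Lcn2 0.52 above the mean.

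Among the silica rats of day 14, rat 1 had the lowest signal of both genes and rat 2 the highest. The mean of the airway secretory markers was 6.33 in silica rat 1, 8.20 in rat 2 and 7.80 in rat 3, and that of the 2 named ciliated markers (of 7) was 9.06, 10.01 and 9.76. The 8 named macrophage markers (of 13) had a mean of 11.85 in silica rat 1 and 11.09 and 11.25 in rats 2 and 3. For the alveolar type 1 markers the mean was 9.70, 10.94 and 10.93, and for the neutrophil markers 8.11, 8.30 and 8.45, in the order of the rats. Rat 1 was thus lowest in 4 marker lists and highest in that of macrophages. It was also lowest in the iron and the acute phase lists and highest in that of cytokines, sensors and signalling. The parts of these cell types in the spread of Lcn2 and Bpifb1 were not tested.

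The named airway cell markers, all of which had been selected at day 28, had a lower mean in the silica rats. For the airway secretory markers it ran from 8.57 to 8.98 in the saline rats of day 14 and from 6.33 to 8.20 in the silica rats. At day 28 it ran from 8.27 to 9.49 and from 6.33 to 6.81. At day 14 Cyp2f4 had a log2 fold change of -1.21 (adjusted p = 0.17 from limma) and Aldh1a1 of -1.53 (adjusted p = 0.055), and neither was called. Tppp3 fell by 1.55 at day 14 (adjusted p = 0.038 from limma), while Rsph1 had -0.36 (adjusted p = 0.33). The median change was -1.37 over the airway secretory and -0.95 over the ciliated markers.

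The named neutrophil markers, for another known source of Lcn2, had a higher mean in every silica rat than in any saline rat, and 1 of the 4 was called higher at day 14. All named markers had been selected at day 28, and the 4 neutrophil markers were all called higher at that day. Among all named probes, which include genes lower at day 28, 25.3% were called higher at day 14. The share among probes that rose at day 28 was not computed. Of the 17 listed, 4 had a named probe, and S100a8, S100a9, Mpo, Elane, Ltf and Camp were not analysed here. The mean of the 4 ran from 5.68 to 6.59 in the saline rats of day 14 and from 8.11 to 8.45 in the silica rats, and at day 28 from 5.73 to 6.50 and from 8.79 to 9.45. Itgam, the alpha chain of complement receptor 3 on neutrophils and macrophages, rose by 3.44 at day 14 (adjusted p = 0.0081 from limma). Mmp9, a gelatinase of neutrophil granules, had 1.94 (adjusted p = 0.079) and Il1r2, a decoy receptor for interleukin-1, had 2.20 (adjusted p = 0.064), and neither was called. Itgb2, the beta chain paired with Itgam, had 0.98 (adjusted p = 0.044), just under the minimum fold change. Of the 8 named macrophage markers 7 were called higher at day 14, with changes from 1.53 for the protease gene Ctss to 5.33 for Fabp4. The Fabp4 probe was well above background in 1 of the 3 saline rats and entered the test through the silica rats. The size of its rise is therefore uncertain, and Trem2 had 4.25. The mean of the 8 ran from 8.13 to 8.78 in the saline rats and from 11.09 to 11.85 in the silica rats. Of the 4 alveolar type 1 markers, Cav1, a coat protein of caveolae, fell by 1.54 (adjusted p = 0.030 from limma). Their mean ran from 11.64 to 11.94 in the saline rats and from 9.70 to 10.94 in the silica rats. The median change at day 14 was 2.07 over the neutrophil markers, 2.75 over the macrophage markers and -1.32 over the alveolar type 1 markers. How much of the Lcn2 signal came from neutrophils, macrophages or epithelium was not tested.

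Other genes of the same functions were taken from lists of secreted airway defence, iron and haem handling, acute phase and complement, and cytokines, sensors and signalling. Every named gene of these lists had been called by the authors at day 28, so a difference at that day was fixed by the choice. Of the 1236 named probes tested at day 14, 16.7% were called lower, beside the 25.3% called higher. These probes include genes that were lower in silica at day 28, whereas every named gene of the lists was called higher at that day. The share among probes that rose at day 28 was not computed. The counts below are therefore not read as higher than expected. The median log2 change over all probes tested at day 14 was -0.01.

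Of 28 genes of secreted airway and mucosal defence, 6 had a named probe. At day 14, 3 of the 6 were called higher and 0 lower, with a median change of 1.55. Slc26a4 encodes pendrin, an anion exchanger that carries thiocyanate and iodide into airway fluid. It rose by 5.53 on the log2 scale, from 4.09 ± 0.49 (SD, n = 3) to 9.62 ± 0.48 (SD, n = 3). Its probe was well above background in 2 of the 3 saline rats and entered the test through the silica rats. The size of the rise is therefore uncertain, and no p-value is given for it, though it is among the 3 called. Lpo, which encodes lactoperoxidase and uses thiocyanate, rose by 2.51 (standard error 0.43, adjusted p = 0.020 from limma). Nos2, the inducible nitric oxide synthase, rose by 1.13 (adjusted p = 0.034 from limma). Duox1, an oxidase that supplies hydrogen peroxide to lactoperoxidase, had 1.21 (adjusted p = 0.054 from limma). The beta-defensin gene Defb4 had 1.90 (adjusted p = 0.074), and the antiprotease gene Slpi had 0.78 (adjusted p = 0.45). These last 3 were not called. Apart from the members themselves, no gene of the lipocalin list of 20 or of the BPI fold list of 15 had a named probe.

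In iron and haem handling 4 of 17 genes had a named probe, of which 2 were called higher at day 14 and 0 lower, with a median change of 1.21. Hmox1, the haem-degrading oxygenase, rose by 2.09 (adjusted p = 0.012 from limma) and the ferritin light chain gene Ftl1 by 1.36 (adjusted p = 0.014). The haemoglobin scavenger Hp had 1.05 (adjusted p = 0.11) and the haem scavenger Hpx had 0.91 (adjusted p = 0.10), and neither was called.

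In the acute phase and complement list 8 of 18 genes had a named probe, and 3 were called higher at day 14 and 0 lower, with a median change of 1.1. C4bpa, a chain of the C4b-binding protein, rose by 2.79 (adjusted p = 0.0088 from limma). Cfi, complement factor I, rose by 2.40 (adjusted p = 0.0026) and Cfb, complement factor B, by 1.14 (adjusted p = 0.020). The other 5, Hp, Hpx, Serpina3n, Fgg and C4b, had changes from 0.79 to 1.23 and were not called.

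The list of cytokines and sensors known to induce Lcn2, with genes of their signalling, held 24 genes, of which 4 had a named probe. At day 14, 2 were called higher and 0 lower, with a median change of 1.11. The cytokine gene Tnf rose by 1.59 (adjusted p = 0.0065 from limma) and Cd14, the co-receptor for lipopolysaccharide, by 1.86 (adjusted p = 0.024). Irak3 had 0.62 and Ikbke 0.51, with adjusted p-values of 0.12 and 0.10 from limma. The interleukins of this list had no named probe and were not analysed here.

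**Figure D3:**
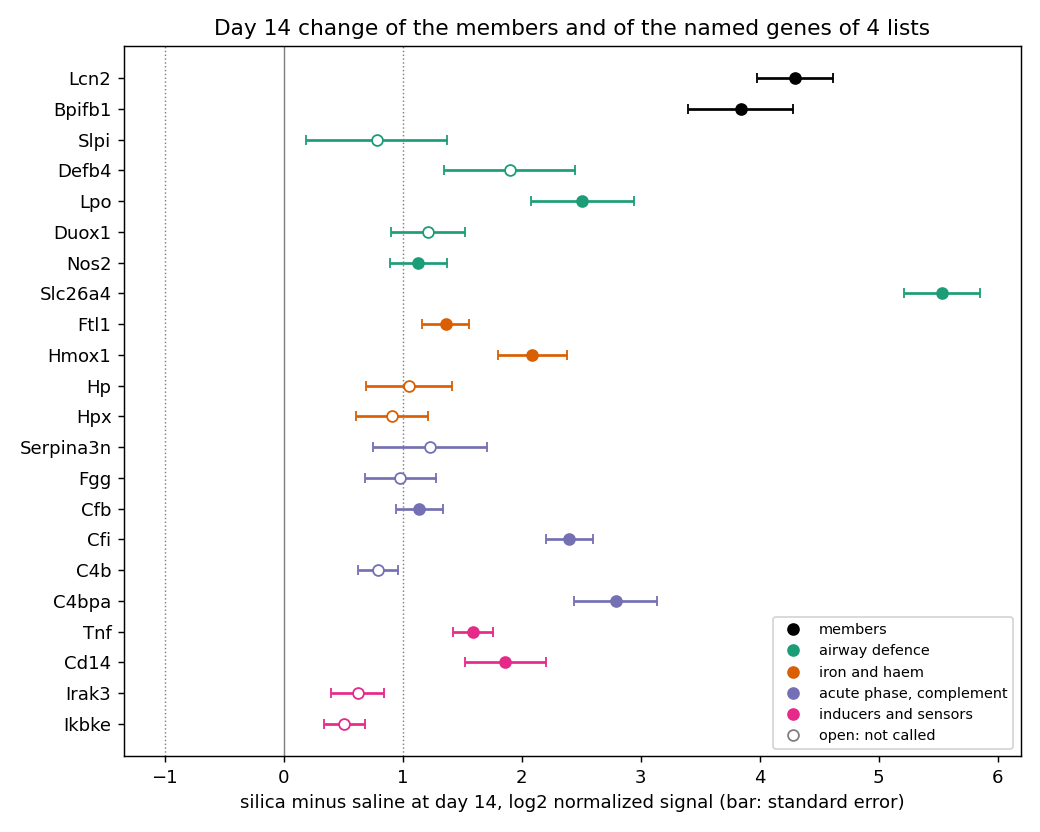
Log2 fold change of silica against saline at day 14 with its standard error, for Lcn2, Bpifb1 and the named genes of 4 lists, coloured by list; filled points were called, and dotted lines mark the minimum fold change. Slc26a4 at 5.53 is the only plotted gene to the right of both Lcn2 at 4.30 and Bpifb1 at 3.84. Its probe entered the test through the silica rats, so the size of its rise is uncertain.

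The pattern of each gene over the 12 arrays was compared with those of 1097 other named genes. Likeness was the root mean square difference of log2 signals, each gene centred on its own mean, so that 0 is an identical pattern. Nearest to Lcn2 were Trem2 (0.49), Gpnmb (0.51), Cxcl6 (0.55), Hk3 (0.60) and Fabp4 (0.60). Trem2 and Gpnmb are known from lipid-laden macrophages, Cxcl6 is a chemokine that draws neutrophils, Hk3 is a hexokinase of myeloid cells, and Fabp4 is a fatty acid carrier of macrophages and fat cells. The log2 fold change at day 14 was 4.25 for Trem2, 3.97 for Gpnmb and 3.60 for Hk3. Fabp4 had 5.33, measured against saline rats of which 1 was well above background at day 14. Likeness over all 12 arrays, those of day 14 included, chose these genes, so a rise at day 14 was part of the choice. No test is given for them. Cxcl6 was not well above background in any saline rat, and its mean signal at day 14 was 6.50 in the silica rats and 1.75 in the saline rats. Against the dimmest signals well above background on the saline arrays it was at least 6.79-fold higher at day 14. It entered the comparison through the silica rats, and its likeness to Lcn2 rests in the saline rats on signals not above background.

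Nearest to Bpifb1 was Lcn2 (0.95), with Slc37a2 (0.95), Thbs2 (0.96), Gas2l3 (1.02) and RGD1565655 (1.03) after it. Seen from Lcn2, however, Bpifb1 came only at place 33. Slc37a2 encodes a sugar phosphate transporter, and Thbs2 encodes thrombospondin 2, a matrix protein. The log2 fold change at day 14 was 3.30 for Slc37a2, 3.16 for Thbs2 and 3.08 for Gas2l3. At day 28 the probes of Slc37a2, Thbs2 and Gas2l3 were each well above background in only 2 saline rats. These genes too were chosen by likeness over arrays that include those of day 14, so no test is given. The probe of RGD1565655 was not well above background in any saline rat of day 14, where the silica rats were at least 7.17-fold higher, with mean signals of 6.57 and 3.27. This probe too entered through the silica rats.

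Likeness between single rats was read from the deviations of the 12 rats from their group means, which leave 8 degrees of freedom. These are descriptions over arrays that share slides and group means, and the highest of 1097 values is high by choice. For Lcn2 the highest Pearson r were those of Gabrr2 (0.91), Gpr155 (0.91), Efhd1 (0.89), Sod2 (0.89) and Vnn3 (0.89). At day 28 Gabrr2 was well above background in 2 saline rats and Efhd1 in no silica rat. Their log2 fold changes at day 14 went in both directions, with 1.11 for Gabrr2, -0.52 for Gpr155, -1.15 for Efhd1, 1.19 for Sod2 and 1.03 for Vnn3. The Efhd1 probe was well above background in 2 silica rats of day 14. Sod2 encodes the mitochondrial superoxide dismutase. For Bpifb1, high values included those of Bard1 (0.90), Mastl (0.88), Kifc1 (0.86) and Cyp2a3 (0.83). The largest deviation of Bpifb1 was 2.63, in saline rat 2 of day 28, and it weighs most in these r. That rat deviated by 0.31 in Bard1, 0.67 in Mastl, 0.70 in Kifc1 and 2.05 in Cyp2a3. At day 28 Mastl was well above background in 1 saline rat, Kifc1 in 2 saline rats and Cyp2a3 in no silica rat. Bard1 acts in DNA repair and Mastl and Kifc1 in mitosis, while Cyp2a3 is a cytochrome P450 of lung and nasal tissue. The same r between Lcn2 and Bpifb1 was 0.60. In the order around Lcn2 by this measure, Bpifb1 came at place 106.

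The promoters are shown because both genes rose with silica, and Lcn2 is known to be induced through NF-κB and C/EBP. The 250 bases before the RefSeq start in the assembly GRCr8 were searched for 5 motifs, and matches are in capitals. They are printed 5′ to 3′ on the strand of the gene, without bases that any RefSeq transcript of the gene covers. The stretch of Lcn2 is at chr3:36081852-36082030 on the minus strand and that of Bpifb1 at chr3:163132901-163133150 on the plus strand.
Lcn2 promoter: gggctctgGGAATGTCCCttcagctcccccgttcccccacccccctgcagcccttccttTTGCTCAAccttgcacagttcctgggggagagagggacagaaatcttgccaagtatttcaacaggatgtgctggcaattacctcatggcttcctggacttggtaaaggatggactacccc
Bpifb1 promoter: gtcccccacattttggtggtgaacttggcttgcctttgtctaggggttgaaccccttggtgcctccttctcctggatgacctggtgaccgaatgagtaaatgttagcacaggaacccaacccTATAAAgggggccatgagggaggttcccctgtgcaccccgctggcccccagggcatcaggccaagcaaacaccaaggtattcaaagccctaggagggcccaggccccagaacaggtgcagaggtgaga

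The Lcn2 window held the NF-κB consensus on its minus strand at -242 to -233 from the start, and the C/EBP motif TTGCNNAA on its plus strand at -191 to -184. Of 33469 rat promoters of the same length, 3.54% held the NF-κB consensus and 9.22% held TTGCNNAA on either strand. The Bpifb1 window held the TATA box TATAAA on its plus strand at -128 to -123, as did 12.9% of promoters on either strand. Neither window held the AP-1 motif TGANTCA or the STAT motif TTCNNNGAA, which were in 6.34% and 7.67% of promoters. No 2 of the matches overlapped. A match is a run of letters, and binding was not measured in these samples.

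**Figure D4:**
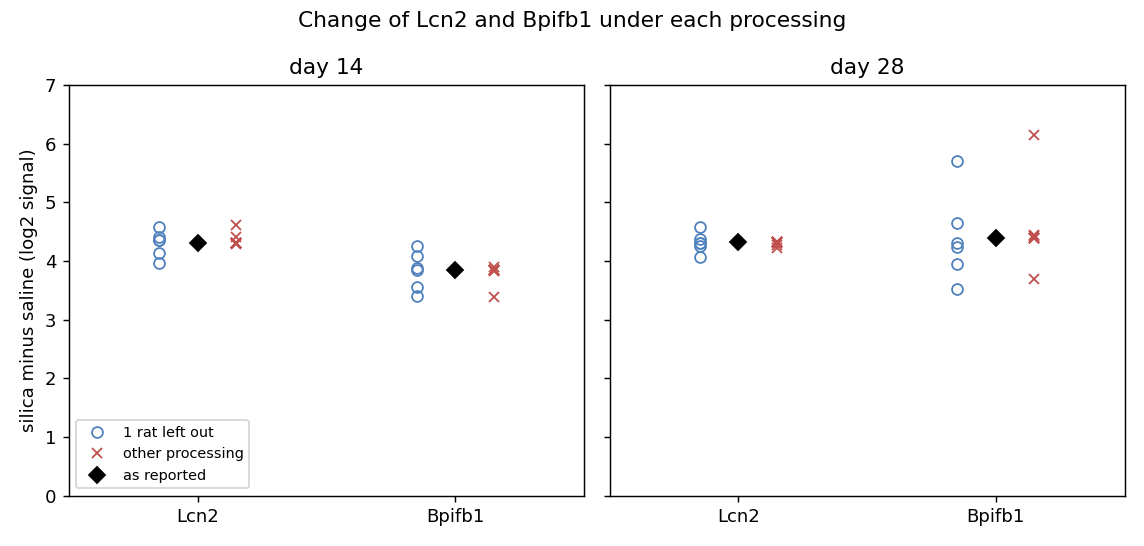
Log2 fold change of silica against saline for Lcn2 and Bpifb1 at day 14 and day 28; the diamond is the value reported, open circles leave out 1 rat each and crosses use another processing. Lcn2 stays between 3.96 and 4.62 on both days, whereas Bpifb1 at day 28 runs from 3.52 to 6.14.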

How the data were processed

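Lung mRNA from 12 rats was labelled with Cy3 and hybridized to Agilent arrays of 62972 spots. The deposited intensity of a spot is the processed signal of Feature Extraction 10.7.1.1, from which background and spatial trend had been removed, without scaling to other arrays. A matrix of quantile-normalized log2 signals was deposited as well. Control spots (1439 per array) were omitted from the intensities. Spots marked as outliers were omitted only where the probe had another spot without a mark. A probe with a single spot, such as those of Lcn2 and Bpifb1, kept it even if marked. Spots of a probe were averaged, and log2 values were quantile normalized over all 12 arrays. For Lcn2 and Bpifb1 they differed from the deposited log2 table by at most 0.0028.

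Probes for which all 3 rats of either group were well above background entered limma 3.58.1 in R 4.3.3, on the 6 arrays of a day, with Benjamini-Hochberg adjustment. Samples were grouped by their titles and time point labels. Alternatives were another background correction, scaling or filter, the deposited log2 table, a single fit of all 4 groups, a replicate or slide block, and omission of each rat. The fit was tested on simulated data for 33615 probes of day 14, in which it recovered 77% of the probes changed by 2 and 95% of those changed by 3 on the log2 scale. Gene names came only from the readable part of the authors' table of differentially expressed genes, and other probes stayed unnamed. Where a gene had several probes the brightest was used. That table also holds the authors' fold changes and p-values, which were not used, and neither were their protein values. Genes named in the text were taken from the members, the named genes of the lists, and the 5 nearest genes by each measure of likeness, of which 1 is not reported here. The members and the lists were chosen with earlier results of these data known. No array pair held identical values. The number of arrays limits the precision of each value.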

Additional observations from a re-analysis of the deposited data

How the results depend on the processing

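Lcn2 and Bpifb1 kept their direction and were called at day 14 under each of 15 alternatives. The log2 fold change of Lcn2 ran from 3.96 to 4.58 with a rat left out and from 4.29 to 4.62 otherwise, with adjusted p-values from 6.5e-05 to 0.028. That of Bpifb1 ran from 3.41 to 4.25 and from 3.38, with normexp background correction, to 3.90, with adjusted p-values from 0.0029 to 0.050. At day 28 Lcn2 ran from 4.06 to 4.58 with a rat left out and Bpifb1 from 3.52 to 5.71. Same-numbered rats did not deviate together (correlations from -0.167 to 0.0729), so the numbers were not taken as pairs. With the replicate block the day 14 changes were 4.30 (adjusted p = 0.0053) and 3.84 (adjusted p = 0.0055) and 1620 probes were called in place of 1678. The difference in the Bpifb1 change between days was 2.30 with slide as a block, against 0.56. With a rat left out it ran from -0.32 to 1.87 for Bpifb1, and for Lcn2 from -0.27 to 0.35. The counts of called probes moved more. At day 14 they were 703 with normexp, 454 with no filter on dim probes, 3175 with no minimum fold change and 335 to 2400 with a rat left out. Without saline rat 1, 2 or 3 of day 14 they were 605, 360 and 335. At day 28, 3065 probes were called, 1299 with normexp, 9195 with no minimum fold change and 2477 to 3639 with a rat left out. Of 42 listed genes, members included, 22 were called at day 14, against 12 with no filter and 11 to 25 with a rat left out. The cause of these moves was not tested. At day 14 all arrays lay on 1 slide, so slide could not be a block there. With a single spot for each gene, spot error could not be separated from differences between rats.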
